A study of Mus musculus with 5 samples.

Results

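Mouse E14 embryonic stem cells labelled as overexpressing hexokinase 2 (Hk2) and pyruvate kinase M2 (Pkm2) were compared with normal E14 cells, both growing with leukemia inhibitory factor (LIF). The comparison sets 1 messenger RNA library of labelled cells against 1 library of normal cells, so no difference between them has a replicate check and no test was possible. Its members are the genes above 0 FPKM (fragments per kilobase, corrected for library depth) in both libraries, 12959 of the 22267 genes with a symbol in the deposited table. Of the remainder, 6623 were listed at 0 in both libraries, 2500 were listed at 0 in 1 of them, and 185 had a hyphen in place of a value. A gene's log2 ratio is its log2(FPKM + 1) in the labelled library minus that in the normal library, a scale that understates differences of low genes. Ratios are described for the 9021 members (69.6%) with a mean of at least 1 FPKM over the pair, and 3938 members fell below that level.

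The other 3 libraries of the study were a normal and a labelled library from cultures deprived of LIF for 24 hours before it was added back, called here the withdrawal pair, and a labelled library kept 40 days without LIF. The withdrawal pair shares no library with the LIF pair. The labels give the strain as C57BL/6 for all 5, and name no clone, vector, promoter or replicate for the overexpression. The sources used here do not say whether the labelled libraries come from 1 line or whether cultures were separate.

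Mouse embryonic stem cells are derived from the inner cell mass and stay undifferentiated while LIF activates Stat3. Hexokinase 2 phosphorylates glucose at the entry of glycolysis, and pyruvate kinase makes pyruvate and ATP at its end. Stem cells in this state run a high rate of glycolysis and also use their mitochondria. They grow as compact colonies held together by E-cadherin and other epithelial junction proteins.

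The targeted genes were measured first. Hk2 (chromosome 6, 82675019 to 82724448, minus strand, mm9) stood at 76.2 FPKM in the normal and 98.6 FPKM in the labelled library, a log2 ratio of 0.37. Pkm (chromosome 9, 59504383 to 59527182, plus strand, mm9), which encodes the M1 and M2 forms, stood at 510 and 567 FPKM, a log2 ratio of 0.15. Neither gene was 2-fold higher in the library labelled as overexpressing, so that library is named by its label only. The sources used here do not say whether fragments of an introduced copy would be counted at these genes.

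Both libraries carried the markers of the labelled cell type. All 6 embryonic stem cell markers were above 1 FPKM in both, with summed levels of 2838 FPKM in the normal and 2808 FPKM in the labelled library. None of 6 fibroblast markers reached 1 FPKM, and their summed levels were 0.0351 and 0.0173 FPKM, with Col1a1 and Postn listed at 0 in both. None of 5 mesoderm or 6 trophoblast markers reached 1 FPKM, and 1 of 6 endoderm markers and 1 of 3 blood markers did so in each library. Of 5 neural markers 2 reached 1 FPKM, with summed levels of 35.1 and 52.3 FPKM. Steps between the lowest values put the depth at about 38100000 fragments for the normal and 40100000 for the labelled library. The steps were sought only inside a preset range of low values, which bounds these figures and may largely set them. They are rough and no independent measure of depth. At that depth a transcript of 2 kilobases at 1 FPKM rests on about 76.2 fragments in the normal library, a counting error of 11.5%. In bulk samples like these, fewer cells that express a gene and less of its RNA per cell cannot be told apart.

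Most genes stood close together in the 2 libraries. The median log2 ratio of the 9021 genes was -0.05, the middle 50% lay between -0.29 and 0.17, and the middle 95% between -1.21 and 1.03. Here and below, 2-fold and 4-fold are counted on FPKM + 1, so the ratio of plain FPKM can be larger for low genes. At least 2-fold higher in the labelled library were 248 genes (2.75%), and at least 2-fold lower were 355 genes (3.94%). Ratios were below 0 for 55.8% of all genes kept, the share to set beside the counts of each gene group below. Only 19 genes were 4-fold higher and 37 were 4-fold lower. Just past the 2-fold line stood Ube3a, an imprinted ubiquitin ligase, at 7.46 and 15.9 FPKM, a log2 ratio of 1.001. Just short of it stood Lad1, a filament-anchoring protein, at 4.22 and 1.61 FPKM, a log2 ratio of -0.999.

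The other glycolytic enzymes had a median near 0 before centring on length and GC content, while a glucose transporter and a lactate exporter stood higher in the labelled library. Slc2a3, the high-affinity glucose transporter GLUT3 (chromosome 6, 122677827 to 122751658, minus strand, mm9), stood at 65.7 FPKM in the normal and 193 FPKM in the labelled library, a log2 ratio of 1.54. In the withdrawal pair it stood at 52.1 and 38.0 FPKM, so the labelled library was the lower there. Slc16a3, the lactate exporter MCT4, stood at 11.9 and 29.3 FPKM with LIF, against 27.4 and 61.8 FPKM after withdrawal, so that labelled was the higher in each pair. Slc2a1, the widespread transporter GLUT1, stood at 160 and 151 FPKM. The 7 glucose and lactate transporter genes kept had a median of -0.09, with 3 above and 4 below 0. Slc2a3 and Slc16a3 were the 2 at least 2-fold higher, and none was 2-fold lower. The lowest was Emb, a partner protein of lactate transporters, at a log2 ratio of -0.80.

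The 12 other glycolytic enzymes kept, of 20 listed, had a median log2 ratio of 0.01, with 6 above and 6 below 0 and 1 past 2-fold, and a median of 0.18 after ratios were centred within cells of similar transcript length and GC content. The gene past 2-fold was Pfkl, a liver-type subunit of phosphofructokinase, at 12.1 and 26.7 FPKM. Its levels after withdrawal were 67.1 and 56.0 FPKM, so the normal library with LIF was the lowest of the 4. The isozyme genes Eno3 (25.1 and 13.7 FPKM), Pfkp (8.09 and 4.56 FPKM) and Ldhb (20.6 and 12.4 FPKM) stood lowest in ratio, between -0.82 and -0.69, and all 3 were also lower in the labelled library after withdrawal. The abundant enzymes lay between Gapdh at -0.17 and Ldha at 0.19, with Aldoa at -0.02, Tpi1 at 0.03, Pgam1 at 0.07 and Pgk1 at 0.14. Eno1 was listed at 0 in all 5 libraries, and whether this reflects its RNA or a failed estimate was not tested. Aldoc and Eno2 were each listed at 0 in 1 library of the pair and are therefore not members.

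Fatty acid synthesis genes stood slightly higher, and cholesterol synthesis genes did not. Of the 12 fatty acid synthesis genes kept, 10 were above 0 and 2 below, with a median log2 ratio of 0.36 and none past 2-fold. Acsl1, which activates fatty acids, stood at 4.29 and 6.95 FPKM, Fads2, a desaturase, at 8.83 and 12.2 FPKM, and Fasn, the fatty acid synthase, at 27.1 and 34.7 FPKM. Srebf1, the regulator of the pathway, was below 0 at 15.4 and 8.24 FPKM. After withdrawal the list's median was 0.22, and 10 of its 12 genes had the same sign in both pairs. The 22 cholesterol synthesis genes kept had a median of -0.13 with LIF (-0.04 after centring on transcript length and GC content) and of 0.00 after withdrawal, with 15 below 0. Of these, 2 were at least 2-fold lower with LIF: Cyp51, a sterol demethylase, at 13.6 and 4.80 FPKM, and Fdft1, squalene synthase, at 27.0 and 12.2 FPKM. Both were higher in the labelled library after withdrawal, at log2 ratios of 0.66 and 0.44.

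The 19 serine, glycine and 1-carbon genes kept had a median of 0.19, with 12 above and 7 below 0. Phgdh, the entry enzyme of serine synthesis, stood at 9.16 and 16.2 FPKM with LIF, against 2.81 and 10.7 FPKM after withdrawal. Shmt1, the cytosolic serine hydroxymethyltransferase, had the highest ratio of all genes eligible to be named, 3.14, at 8.80 and 85.3 FPKM. Its levels in the other 3 libraries were 72.5, 83.4 and 57.4 FPKM, so the normal library with LIF stood apart from the rest. Targets of Atf4, the transcription factor of amino acid stress, had a median of 0.14, with 17 of 23 above 0 and none past 2-fold. Slc7a1, a cationic amino acid transporter, was highest among them at 8.48 and 17.7 FPKM, a log2 ratio of 0.98 on FPKM + 1.

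Hypoxia and redox genes differed little. The 23 targets of hypoxia-inducible factor kept had a median of 0.14 with LIF, which turned to -0.02 with a minimum mean of 5 FPKM, and of -0.14 after withdrawal. Besides Slc2a3, P4ha2, a collagen hydroxylase, was 2-fold higher at 0.626 and 2.34 FPKM, though not with 1 transcript per gene, and Bnip3, a mitophagy receptor, 2-fold lower at 5.37 and 1.55 FPKM. Of 21 genes of the Nrf2 and glutathione defence kept, 18 were below 0, with a median of -0.22 with LIF (-0.15 after centring on transcript length and GC content) and -0.11 after withdrawal. Prdx6, a peroxiredoxin, was lowest at 47.6 and 22.2 FPKM, and Nqo1, a quinone reductase, stood at 33.8 and 22.5 FPKM with LIF, against 40.5 and 22.1 FPKM after withdrawal.

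Mitochondrial genes stood slightly lower, by amounts close to those of genes of like length and base composition. Nuclear respiratory chain genes had a median log2 ratio of -0.15, with 53 of 67 below 0, and -0.03 once ratios were centred within cells of similar transcript length and GC content. The 71 mitochondrial ribosomal protein genes had a median of -0.13, and 0.00 after that centring. After withdrawal the medians were -0.02 for respiratory chain genes and 0.03 for mitochondrial ribosomal protein genes. For the 33 genes of pyruvate entry and the tricarboxylic acid cycle the median was -0.07, and 0.01 under quantile normalization. Of these, 3 were at least 2-fold lower. Pdha1, a subunit of pyruvate dehydrogenase, stood at 111 and 41.4 FPKM, Idh3a, a subunit of isocitrate dehydrogenase, at 56.4 and 22.8 FPKM, and Me2, the mitochondrial malic enzyme, at 9.97 and 3.31 FPKM. After withdrawal the first pair of these genes had log2 ratios of -0.04 and 0.08, and Me2 of 2.99.

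The 55 ribosomal protein genes kept, of 78 listed, had a median of -0.28, with 47 below 0, and of -0.15 after centring on length and GC content. A further 8 were listed at 0 in 1 library. After withdrawal the median was 0.07, and 20 of the 51 genes kept in both pairs had the same sign in each. Many of these genes have near-identical processed copies in the genome, so their values are uncertain. Rps3a1 stood at 124 and 10.2 FPKM with LIF, against 10.1 and 116 FPKM after withdrawal.

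A trend with transcript length and GC content ran through all genes with LIF. With genes in 10 groups of equal size, the group of shortest transcripts stood at a median log2 ratio of -0.16 and the longest at 0.11. The group with the lowest GC content had a median of 0.07, with 39 genes 2-fold higher and 23 lower, and the group with the highest of -0.28, with 5 higher and 55 lower. After withdrawal the ends of the length trend were -0.04 and 0.00, and those of the GC trend 0.02 and -0.11. The plot of median ratio by length and GC content shows the slope with LIF to be the steeper. Its part in the differences named here was not tested beyond the centred values given beside them.

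**Figure D1:**
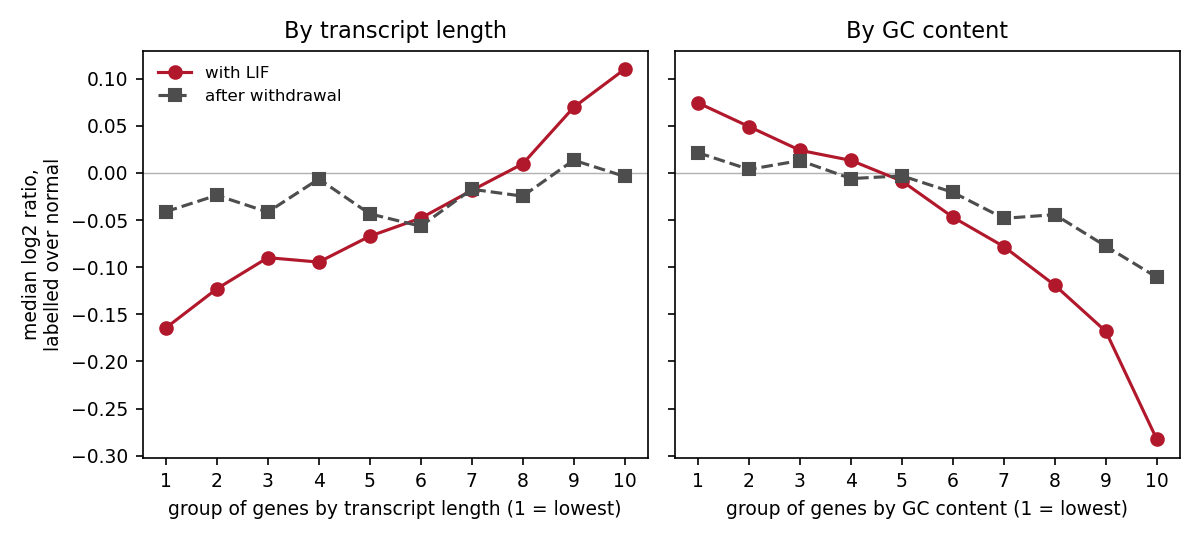
Median log2 ratio (labelled over normal, log2(FPKM + 1) scale, y axis) of the genes kept, in 10 equal groups by transcript length (left) and by GC content (right), with LIF (circles) and after withdrawal (squares). With LIF the median goes from -0.16 in the shortest group to 0.11 in the longest, and from 0.07 at the lowest GC content to -0.28 at the highest.

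Pluripotency genes stood at similar levels. The 16 core pluripotency genes had a median log2 ratio of -0.03, a sign that turned under scaling to the library median, under quantile normalization, with 1 transcript per gene and after centring, and none was past 2-fold. Pou5f1 stood at 1092 and 1084 FPKM, Sox2 at 212 and 236 FPKM and Zfp42 at 266 and 278 FPKM. The 19 naive genes had a median of 0.06, with Nr5a2, a nuclear receptor that can activate Pou5f1, highest at 4.10 and 13.8 FPKM and Dppa3, an oocyte and germ cell factor, lowest at 6.15 and 1.49 FPKM. Dppa3 was also lower in the labelled library after withdrawal, at 4.81 and 1.07 FPKM. Targets of LIF had a median of 0.01. Socs3, the feedback inhibitor that LIF induces, stood at 65.3 and 64.8 FPKM with LIF, against 2.25 and 0.970 FPKM after withdrawal. The subunits of the LIF receptor went opposite ways, with Lifr at 2.96 and 9.85 FPKM and Il6st, the shared subunit gp130, at 7.74 and 3.01 FPKM. After withdrawal Lifr was listed at 0 in both libraries and Il6st stood at 3.16 and 2.65 FPKM.

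Among the 15 primed epiblast genes kept, 9 were below 0, a share close to the 55.8% of all genes, and 2 were 2-fold lower. Lefty1, a secreted inhibitor of Nodal, stood at 32.1 and 7.39 FPKM, and at 32.9 and 18.9 FPKM after withdrawal. The de novo DNA methyltransferase gene Dnmt3b stood at 35.8 and 11.2 FPKM with LIF but at 31.7 and 144 FPKM after withdrawal. Above 0 with LIF were Otx2, a transcription factor of the epiblast, at 1.20 and 3.13 FPKM, and Etv4, an Ets factor downstream of FGF, at 30.1 and 54.8 FPKM. Components of the Nodal pathway went both ways: Smad2, a signal transducer, stood at 3.82 and 16.7 FPKM, and Lefty2 at 22.6 and 13.9 FPKM.

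Epithelial junction genes stood lower in the labelled library with LIF. Of 13 claudin and tight junction genes kept, 10 were below 0 and 4 at least 2-fold lower, with a median log2 ratio of -0.64 (and -0.66 after centring on length and GC content). Of 15 epithelial adhesion genes kept, 12 were below 0 and 4 were 2-fold lower, with a median of -0.75 (-0.49 after centring). The same lists had medians of -0.71 and -0.43 after withdrawal. The sign was the same in both pairs for 8 of the 13 genes and 12 of the 15. At least 2-fold lower in both pairs were 2 tight junction genes and 0 adhesion genes. Over all genes kept, 55.8% were below 0 and 3.94% at least 2-fold lower with LIF. Neither list held a gene 2-fold higher with LIF. Of the listed genes, Cldn1, Ocln, Mpp5, Esrp2, Pkp3 and Prss8 were each listed at 0 in 1 library of the pair and are not members.

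Among the claudins, the membrane proteins that seal tight junctions, Cldn6 (chromosome 17, 23816332 to 23819413, plus strand, mm9) stood at 12.2 FPKM in the normal and 1.66 FPKM in the labelled library. It stood at 34.5 and 11.2 FPKM after withdrawal, lower in the labelled library of each pair. Cldn7 stood at 5.66 and 0.959 FPKM with LIF, against 11.7 and 3.88 FPKM after withdrawal. Cldn4 stood at 40.2 and 25.4 FPKM, then at 56.8 and 27.9 FPKM. F11r, which encodes junctional adhesion molecule A, had the lowest ratio of the list, -2.91, at 21.1 and 1.94 FPKM, but the labelled library was the higher after withdrawal, at 7.99 and 15.3 FPKM. Crb3, a polarity protein of the apical membrane, stood at 6.52 and 1.66 FPKM. The tight junction scaffold gene Tjp1 was near 0 at -0.12.

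Among the adhesion genes, Epcam, a surface glycoprotein of epithelia and stem cells, stood at 59.2 and 22.7 FPKM with LIF, against 88.1 and 63.8 FPKM after withdrawal. Cdh1, which encodes E-cadherin, stood at 56.0 and 33.0 FPKM, then at 125 and 94.4 FPKM. Jup, the junction plaque protein plakoglobin, stood at 23.6 and 6.06 FPKM with LIF, while its levels in the other 3 libraries lay between 3.73 and 6.56 FPKM, so here the normal library was the one apart. Rab25, an epithelial trafficking GTPase, stood at 2.75 and 0.295 FPKM. The simple keratin genes Krt8 (11.2 and 6.20 FPKM), Krt18 (5.25 and 2.80 FPKM) and Krt19 (3.06 and 0.788 FPKM) were all below 0. These keratins are also in the trophoblast list, whose 5 members kept were all below 0, with Tfap2c, a trophoblast and germ cell transcription factor, at 12.1 and 4.79 FPKM. The 9 mesenchymal genes kept had a median of 0.20 with LIF (0.38 after centring), with 5 above and 4 below 0. After withdrawal their median was -0.24. Vim, an intermediate filament protein, stood at 100 and 144 FPKM with LIF but at 44.6 and 37.5 FPKM after withdrawal, and Fn1, fibronectin, at 35.9 and 58.7 FPKM, then 52.7 and 50.3 FPKM. Snai1, a repressor of Cdh1, stood at 2.58 and 1.45 FPKM with LIF. Zeb1, of the same list, went the other way at 2.28 and 3.51 FPKM, then 1.42 and 1.60 FPKM after withdrawal.

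Promoters of these genes are shown because 12 of the 21 searched from the epithelial lists share a short sequence. Whether it bears on their ratios was not tested. The E-box hexamer CAGGTG, whose reverse complement is CACCTG, is the core that Snai and Zeb repressors are known to bind. It was searched on both strands in the 250 bases before the start site, with RefSeq promoters of GRCm38.p6, 1 per gene. Of the 28 genes kept in the epithelial lists together, 21 had a promoter in the table, and 12 of these (57.1%) held at least 1 copy and 6 (28.6%) at least 2. Over all 27025 promoters the shares were 17.1% and 2.06%, and over the 7298 genes kept that had one they were 14.1% and 1.48%. Among the genes at least 2-fold lower with LIF 16.5% held the hexamer, and among those 2-fold higher 10.8%. Genes without it in this window included Jup, Cldn3, Tjp1 and, at the first of its listed starts, Cldn7. Of these, Jup and Cldn7 were at least 2-fold lower with LIF. The 4 promoters printed were picked from genes at least 2-fold lower with LIF that hold the hexamer. The matches, on either strand, are in capitals in 4 of the promoters, given 5′ to 3′ in the direction of the gene.
Cldn6 (chr17:23679115-23679364, plus strand): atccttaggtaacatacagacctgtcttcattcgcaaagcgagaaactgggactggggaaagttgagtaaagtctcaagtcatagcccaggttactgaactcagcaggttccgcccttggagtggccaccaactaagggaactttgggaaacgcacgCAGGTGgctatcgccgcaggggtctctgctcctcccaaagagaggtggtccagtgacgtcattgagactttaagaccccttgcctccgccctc
Crb3 (chr17:57061951-57062200, plus strand): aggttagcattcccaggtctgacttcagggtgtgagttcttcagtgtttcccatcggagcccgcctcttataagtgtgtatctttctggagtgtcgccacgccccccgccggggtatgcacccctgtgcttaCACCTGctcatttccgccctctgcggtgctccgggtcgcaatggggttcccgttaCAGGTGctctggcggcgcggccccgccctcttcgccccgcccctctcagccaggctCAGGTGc
Epcam (chr17:87635729-87635978, plus strand): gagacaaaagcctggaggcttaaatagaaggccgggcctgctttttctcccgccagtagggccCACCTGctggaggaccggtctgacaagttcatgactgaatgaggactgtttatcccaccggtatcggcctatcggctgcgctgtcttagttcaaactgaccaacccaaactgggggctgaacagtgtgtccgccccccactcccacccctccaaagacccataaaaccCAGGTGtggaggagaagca
Rab25 (chr3:88548280-88548529, minus strand): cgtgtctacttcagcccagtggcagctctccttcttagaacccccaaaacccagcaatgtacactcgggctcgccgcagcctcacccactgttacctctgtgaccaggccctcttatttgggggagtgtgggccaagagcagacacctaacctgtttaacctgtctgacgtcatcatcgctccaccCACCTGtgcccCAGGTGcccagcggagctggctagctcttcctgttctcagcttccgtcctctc

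Targets of p53, the transcription factor that answers DNA damage, were mostly lower. Of 27 kept, 19 were below 0, against 55.8% of all genes kept, and the median was -0.21. At least 2-fold lower were 6, against 3.94% of all genes kept, and none was 2-fold higher. Under quantile normalization 2 of the 6, Bbc3 and Plk2, came just short of 2-fold. After withdrawal the median was -0.44, and 24 of the 27 had the same sign in both pairs. Perp, a desmosomal protein and apoptosis effector, stood at 34.0 and 11.7 FPKM with LIF, against 28.0 and 4.18 FPKM after withdrawal. Ptpn14, a phosphatase, stood at 6.24 and 1.34 FPKM, then at 11.6 and 2.23 FPKM. Bbc3, which encodes the cell death protein Puma, stood at 17.8 and 8.24 FPKM, then at 17.3 and 6.70 FPKM. Mdm2, the ubiquitin ligase that degrades p53, stood at 49.2 and 17.8 FPKM, then at 26.3 and 19.2 FPKM. Bax, a pore-forming cell death protein, was lower with LIF alone, at 208 and 85.7 FPKM, and stood at 146 and 148 FPKM after withdrawal. Cdkn1a, the cell cycle inhibitor p21, stood at 11.5 and 8.29 FPKM, and Trp53 itself at 178 and 143 FPKM.

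Immediate early genes, the first to answer growth signals, were lower as well, as were Ccn1, Ccn2 and Lgals1. Of 14 immediate early genes kept, 12 were below 0, against 55.8% of all genes kept. Their median was -0.57 with LIF (-0.42 after centring on length and GC content) and -0.54 after withdrawal. Jun stood at 3.92 and 1.34 FPKM with LIF, against 5.15 and 1.55 FPKM after withdrawal, and Junb at 64.0 and 33.6 FPKM, then 13.3 and 5.76 FPKM. Egr1 stood closer together, at 68.3 and 52.9 FPKM. The secreted matrix proteins Ccn1 (22.4 and 6.66 FPKM) and Ccn2 (61.4 and 23.8 FPKM), and the lectin gene Lgals1 (77.8 and 34.8 FPKM), were at least 2-fold lower in the labelled library of both pairs. These 3 genes come from the fibroblast list, of which 7 of 18 genes were kept, 4 below and 3 above 0. The 3 above 0 were Thy1, a surface glycoprotein, at 0.792 and 2.54 FPKM, Fn1 and Vim. Ccn1 and Ccn2 are also in a list of YAP and TEAD regulators and targets. Of its 15 genes kept, 9 were above 0 and 6 below, with a median of 0.09. The defining fibroblast markers were at or near 0 in both libraries.

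Lysosomal genes showed small differences, mostly toward lower levels. Of 29 kept, 24 were below 0 and 5 above, against 55.8% of all genes kept below 0. The median was -0.25 with LIF and -0.34 after withdrawal, and 25 had the same sign in both pairs. Npc2, a cholesterol carrier of the lysosome, was the only one 2-fold lower, at 41.3 and 16.5 FPKM, and Atp6v1e1, a proton pump subunit, the only one 2-fold higher, at 20.8 and 46.3 FPKM. Lamp1 stood at 198 and 153 FPKM, Ctsb at 23.0 and 13.7 FPKM and Hexa at 41.7 and 21.1 FPKM.

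**Figure D2:**
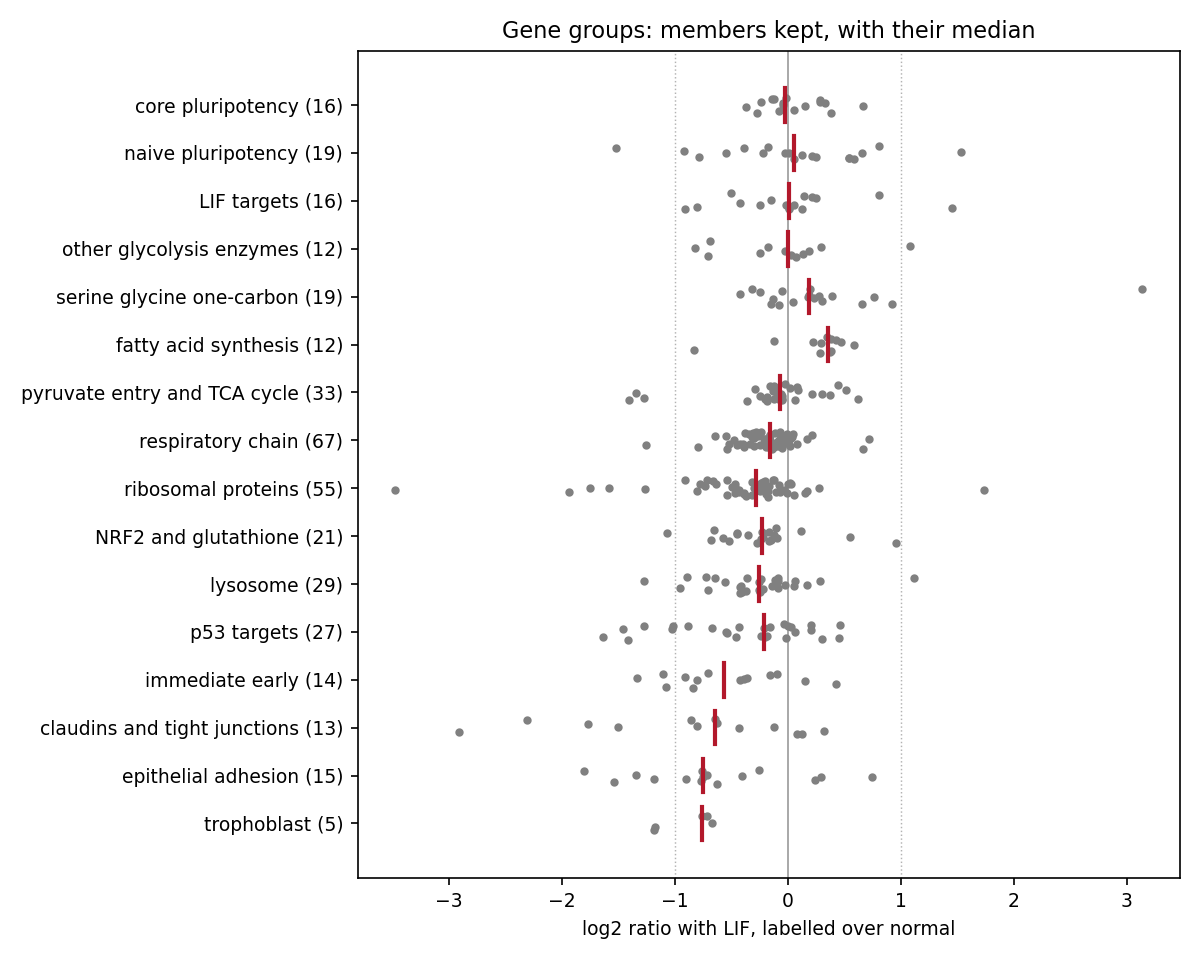
Log2 ratios with LIF (x axis, labelled over normal, log2(FPKM + 1) scale) of the members kept in 16 gene groups, 1 grey point per gene, with the group median as a red bar and the number kept in brackets; dotted lines mark 2-fold. Pluripotency, LIF target and glycolysis medians lie near 0, fatty acid synthesis at 0.36, and claudins, epithelial adhesion and trophoblast genes at -0.64, -0.75 and -0.76.

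A stretch at the start of chromosome 13 stood lower gene after gene. Its edges were set on the withdrawal pair alone, as a run of genes, replication histones left out, whose running median over 9 neighbours was at or below -0.5. This gave 1 run of at least 5 genes in the genome, from Gdi2 to Tdp2 (chromosome 13, 3537321 to 24934022, mm9), which begins with the first gene kept on the chromosome. The next longest run had 4 genes. With LIF, in libraries that did not set the edges, 62 of the 69 genes of the stretch were below 0, against 55.8% of all genes kept. Their median log2 ratio was -0.68, and 13 were at least 2-fold lower and 1 higher.

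The stretch holds 28 replication histone genes and 41 others, and these differed. The 41 stood at a median log2 ratio of -0.83, a median level in the labelled library of 0.522 times that in the normal one, with 38 below 0. After withdrawal the 38 of them kept there had a median of -0.90, a value that set the edges and so describes the stretch without repeating the result. The library at 40 days set against the same normal library with LIF gave a median of -0.69. The 28 histone genes, whose transcripts mostly lack a poly(A) tail and have many near-identical copies, had a median of -0.45 with LIF, -0.18 after centring on length and GC content, and 0.01 after withdrawal. For the 41 other genes the centred median was -0.81. The remaining 257 genes of chromosome 13 had a median of -0.01, all other chromosomes of -0.05, and the 20 genes that follow the stretch of -0.05. Of 231 bins of 10 megabases with at least 10 genes, the 3 lowest medians were the first 3 of chromosome 13, at -0.86, -0.77 and -0.62. All other bins lay between -0.25 and 0.34.

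The genes named here from the stretch, replication histones aside, had varied roles. Gdi2, which recycles Rab GTPases and lies first, stood at 134 and 73.1 FPKM with LIF, at 154 and 72.8 FPKM after withdrawal and at 81.8 FPKM at 40 days. Idi1, an enzyme of cholesterol synthesis, stood at 44.5 and 22.6 FPKM, then at 53.7 and 28.2 FPKM. Pfkp, the platelet-type phosphofructokinase named above, lies here too. All 3 were lower in the labelled library of both pairs.

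Rala, a small GTPase, stood at 19.2 and 7.56 FPKM, then at 19.9 and 8.22 FPKM. Stard3nl, an endosomal membrane protein, stood at 37.6 and 15.5 FPKM, then at 43.3 and 15.8 FPKM. Psma2, a proteasome core subunit, stood at 154 and 80.2 FPKM with LIF, against 152 and 24.6 FPKM after withdrawal, a wider gap. Yae1d1 had the lowest ratio of the stretch, -1.80, at 4.34 and 0.535 FPKM.

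Near the other edge, Gmnn, which encodes the replication licensing inhibitor geminin, stood at 76.9 and 38.0 FPKM, then at 70.7 and 33.9 FPKM. Acot13, a thioesterase, stood at 27.0 and 12.3 FPKM, and Tdp2, a DNA repair enzyme, at 36.7 and 17.0 FPKM. Past the edge, Mrs2, a mitochondrial magnesium channel, was still below 0 at 2.34 and 0.948 FPKM. Of the genes other than histones, 3 were above 0 with LIF. Mtr, methionine synthase, stood at 2.69 and 3.49 FPKM, Sfrp4, a secreted Wnt modulator, at 1.16 and 1.59 FPKM, and Gtpbp4, a ribosome assembly GTPase, at 9.52 and 35.1 FPKM. The levels of Gtpbp4 after withdrawal were 73.9 and 34.6 FPKM, so its normal library with LIF stood apart.

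Several genes counted in the groups above lie in this stretch. They include Klf6 among the immediate early genes, at 12.6 and 4.42 FPKM, Idi1 in cholesterol synthesis, Gmnn among replication genes and most of the replication histones. Without the stretch, the immediate early median was -0.42. The 4 replication histones with a position elsewhere had a median of -0.09.

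**Figure D3:**
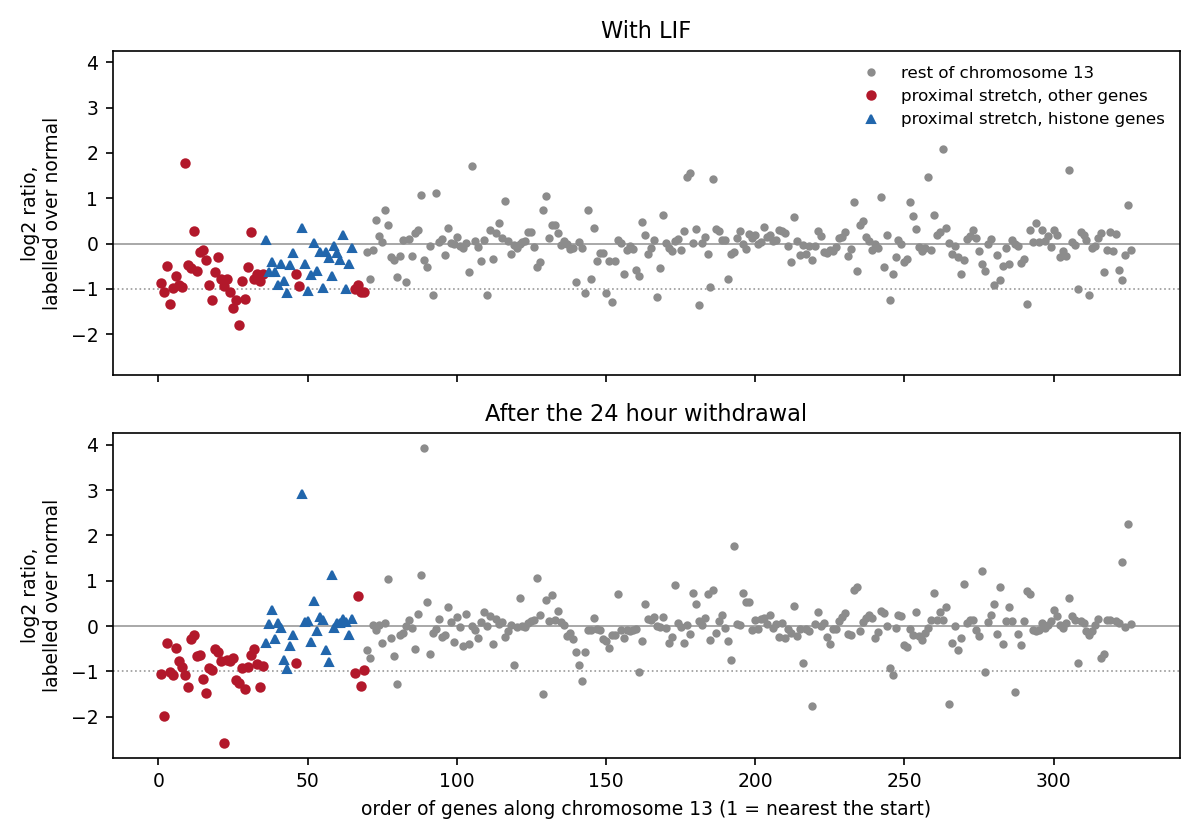
Log2 ratio (labelled over normal, log2(FPKM + 1) scale, y axis) of each gene kept on chromosome 13, in gene order from the start of the chromosome (x axis), with LIF (top) and after withdrawal (bottom). Red circles are the 41 genes of the proximal stretch other than histones, blue triangles its 28 histone genes and grey points the rest; the red circles with LIF have a median of -0.83 and the grey points of -0.01.

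Transcripts of the Y chromosome were lower or nearly missing in the labelled library. Ddx3y, a Y-linked RNA helicase (597158 to 623056, minus strand, mm9), stood at 11.8 FPKM in the normal and 0.0225 FPKM in the labelled library. At the rough depths given above this was about 2079 against 4.19 fragments. Uty, a Y-linked relative of the histone demethylase Kdm6a, stood at 3.25 and 0.00973 FPKM, about 645 against 2.03 fragments. Both stood at like levels in the withdrawal pair. Eif2s3y, a Y-linked translation initiation factor subunit, was lower by less, at 34.1 and 16.3 FPKM with LIF, against 35.1 and 22.6 FPKM after withdrawal. At 40 days the labelled library held 1.79 FPKM of Ddx3y and 4.58 FPKM of Eif2s3y, so the labelled libraries differed among themselves. Kdm5d, Zfy1, Zfy2 and Sry were listed at 0 in both libraries with LIF. The 7 genes kept from a list of X-linked partners of Y genes had a median log2 ratio of 0.27 with LIF and -0.02 after withdrawal. With LIF it was 0.08 after centring on length and GC content, for the 6 genes that could be centred. The list also holds Tsix, which has no Y partner and had a log2 ratio of 0.55.

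Cell division genes as a group stood near 0. The 39 mitosis genes had a median of 0.09, with 3 at least 2-fold higher and 1 lower. Pttg1, which encodes securin, the inhibitor of separase (chromosome 11, 43233752 to 43239753, minus strand, mm9), stood at 8.12 and 58.9 FPKM with LIF, against 7.82 and 61.1 FPKM after withdrawal, with 16.6 FPKM at 40 days. Its ratios, 2.72 and 2.82, were the highest that held in both pairs. Smc2, a condensin subunit, stood at 4.25 and 37.0 FPKM, but at 32.7 and 34.6 FPKM after withdrawal, so only the normal library with LIF was low. Ccnb1, cyclin B1, was 2-fold lower with LIF, at 48.2 and 18.6 FPKM, and higher after withdrawal, at 24.0 and 42.2 FPKM.

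The Smc2 pattern was common among the 2-fold genes. Of the 223 genes at least 2-fold higher with LIF that were also kept in the withdrawal pair, the normal library with LIF differed at least 2-fold from each of the other 3 in 67, and the labelled library in 29. Among 325 genes at least 2-fold lower, it was the labelled library with LIF that stood apart in 107 and the normal one in 30. Bola2, an iron-sulfur cluster factor, stood at 21.7 and 135 FPKM with LIF, against 136 and 159 FPKM after withdrawal. Snrpc, a spliceosome subunit, stood at 32.2 and 3.16 FPKM, then at 25.6 and 22.2 FPKM, and Smarca5, a chromatin remodeller, at 28.6 and 4.02 FPKM, then at 22.4 and 23.8 FPKM. With 1 library a side, such values cannot be told apart from failed estimates of 1 library.

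A smaller number of genes differed 2-fold the same way in both pairs. Of the 223 genes higher with LIF, 28 (12.6%) were at least 2-fold higher after withdrawal, against 2.49% of the 8479 genes kept in both pairs, and 21 were 2-fold lower. Of the 325 lower with LIF, 71 (21.8%) were at least 2-fold lower after withdrawal, against 3.86% of all, and 22 were 2-fold higher. Across the 8479 genes, which are not independent replicates, the ratios of the pairs had a Pearson correlation of 0.24 and a Spearman correlation of 0.32. The scatter of the ratios of the 2 pairs shows these genes in its lower left and upper right corners.

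**Figure D4:**
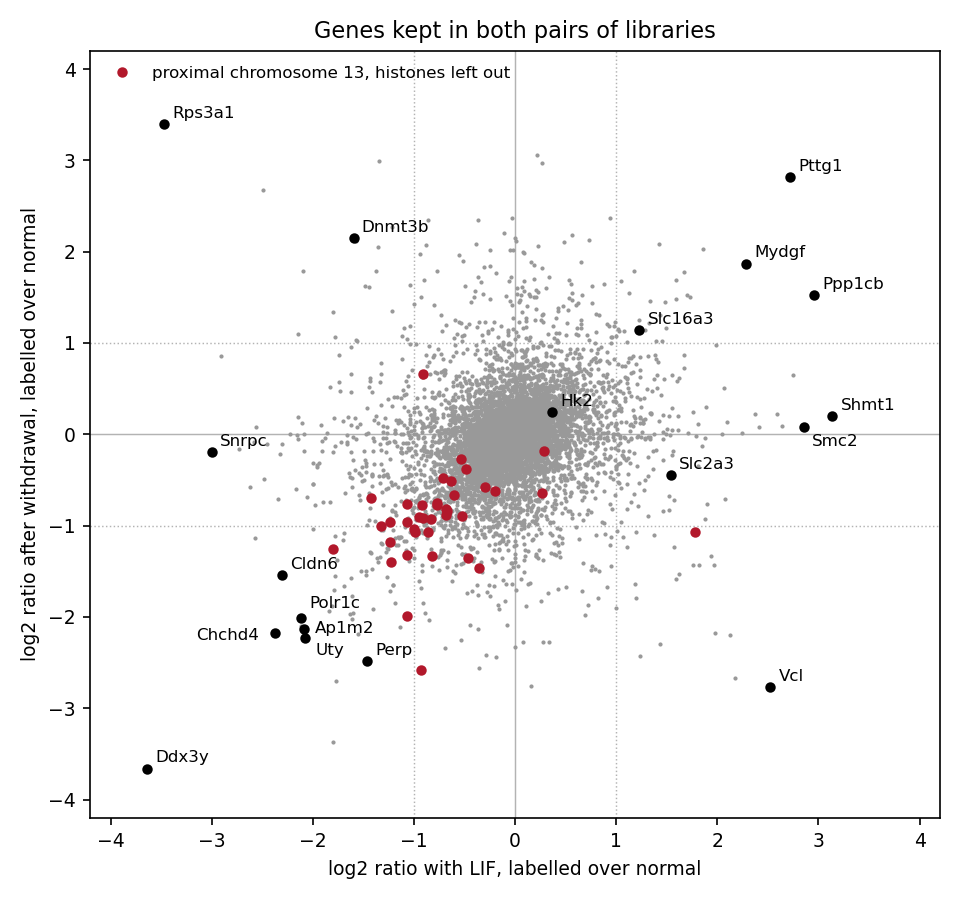
Log2 ratio with LIF (x axis) and after withdrawal (y axis), labelled over normal, log2(FPKM + 1) scale, for the 8479 genes kept in both pairs; dotted lines mark 2-fold. Red points are proximal chromosome 13 genes other than histones and black points are named genes; Ddx3y and Pttg1 lie far out in the same direction in both pairs, and Rps3a1 and Vcl in opposite directions.

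Genes lowest in both pairs had varied roles. Chchd4, a protein of the mitochondrial import pathway (chromosome 6, 91414270 to 91423417, minus strand, mm9), stood at 72.7 and 13.3 FPKM with LIF, at 63.5 and 13.2 FPKM after withdrawal and at 12.8 FPKM at 40 days. Polr1c, a subunit shared by RNA polymerases I and III, stood at 109 and 24.4 FPKM, at 108 and 26.0 FPKM, and at 27.3 FPKM. In both genes the 3 labelled libraries lay together and apart from both normal ones.

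For other genes of this kind the library at 40 days stood with the normal ones. Ap1m2, an epithelial clathrin adaptor subunit, stood at 19.6 and 3.84 FPKM, at 22.2 and 4.32 FPKM, and at 19.8 FPKM at 40 days. Kmt5a, which places a single methyl group on histone H4, stood at 40.3 and 10.8 FPKM, at 41.7 and 10.6 FPKM, and at 44.3 FPKM. Anxa3, an annexin, stood at 6.79 and 1.29 FPKM, at 8.73 and 0.491 FPKM, and at 12.8 FPKM.

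Genes highest in both pairs included Mydgf, a secreted factor, at 6.19 and 34.1 FPKM with LIF, at 8.43 and 33.4 FPKM after withdrawal and at 31.1 FPKM at 40 days. Ppp1cb, a catalytic subunit of protein phosphatase 1, stood at 9.82 and 83.0 FPKM, then at 26.7 and 78.7 FPKM. Metap2, which removes the first methionine of new proteins, stood at 11.2 and 35.8 FPKM, then at 13.1 and 38.3 FPKM. Mbd3, a subunit of the NuRD chromatin complex, stood at 24.9 and 64.6 FPKM, then at 29.6 and 83.3 FPKM, and its relative Mbd2 at 1.56 and 5.41 FPKM, then at 1.74 and 5.37 FPKM. In each of these genes both labelled libraries were above both normal ones. The imprinted growth factor adaptor gene Grb10 stood at 9.07 and 31.1 FPKM with LIF, then at 11.4 and 21.6 FPKM. Dicer1, the microRNA-processing nuclease, stood at 0.724 and 10.6 FPKM with LIF, against 1.18 and 2.42 FPKM after withdrawal.

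**Figure D5:**
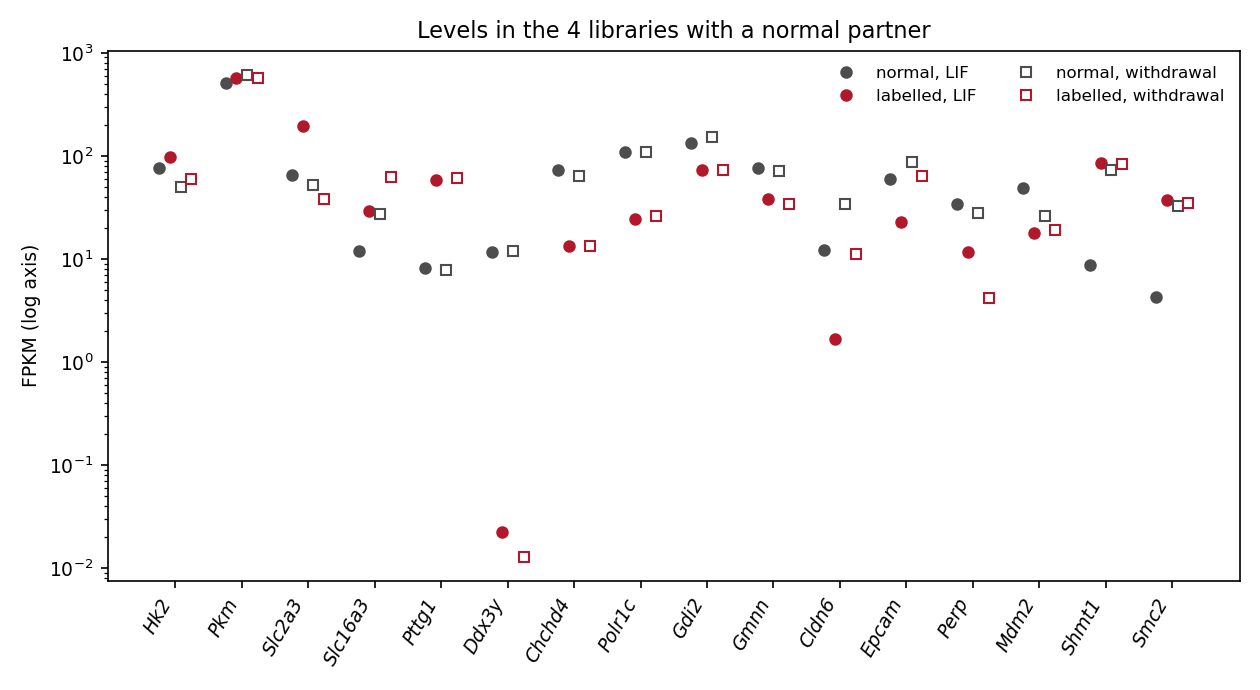
FPKM (y axis, log axis) of 16 named genes in the 4 libraries that have a normal partner, 1 point per library, normal in grey and labelled in red, with LIF as filled circles and after withdrawal as open squares. Chchd4, Polr1c and Gdi2 have both labelled libraries below both normal ones, Pttg1 has both above, and for Shmt1 and Smc2 the normal library with LIF is the one that stands apart.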

How the data were processed

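Messenger RNA was prepared with the TruSeq RNA kit, version 2, per the labels' protocols. It does not mark strand, so overlapping and antisense genes were not separated. The authors deposited 1 table of FPKM per RefSeq transcript, made with TopHat2 2.0.7, Cufflinks 2.0.2 and the mm9 build, per the submitters' processing notes. How fragments with several matches were treated is not stated there, so genes with near-identical copies are uncertain. FPKM keeps no counts, and no count model was run. Depth was estimated from the steps between the lowest FPKM values, sought inside a preset range that bounds the estimate and may largely set it.

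Of 28698 transcripts, 28066 were paired with a symbol through a RefSeq table, and FPKM was summed per gene, the 355 further copies included. Ratios are differences of log2(FPKM + 1), with a minimum mean of 1 FPKM. Positions come from GENCODE vM1 on mm9, found for 8917 of the 9021 genes kept. Length and GC content came from its transcripts for 8808 genes (97.6%), and ratios were centred on the median of each of 16 cells of length and GC quartiles. With 1 library per group there is no test.

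The members and the 58 gene lists were chosen with earlier results of these data known. Named genes are Hk2 and Pkm, the 12 highest and 12 lowest ratios with LIF, the 12 most extreme each way in both pairs, up to 6 members per list and a fixed set. Genes of the chromosome 13 stretch, and further list members, were chosen after their values were seen. The run search and the ratios were tested on simulated data, with noise smaller than the spread of the ratios here. That checks the code and gives no rate of false runs or false 2-fold calls in these data. Tools were Python 3.11.15, pandas 2.3.3 and numpy 2.4.6.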

Additional observations from a re-analysis of the deposited data

Results flagged for a closer look

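In 8 named genes the labelled library stood at least 2-fold on one side of the normal library with LIF and at least 2-fold on the other side after withdrawal. The difference between the pairs was not tested, and each value rests on 1 library. The log2 ratio with LIF and then after withdrawal was -1.60 and 2.15 for Dnmt3b, a de novo DNA methyltransferase, and -1.38 and 1.78 for Edem1, which directs misfolded glycoproteins to degradation. It was -1.35 and 2.99 for Me2 and -1.44 and 1.61 for Tk1, thymidine kinase. Pclaf, a partner of the replication clamp, had ratios of -2.49 and 2.67, and Rps3a1, which has near-identical copies, of -3.47 and 3.40. Ratios the other way round were found in Mrps5, a mitochondrial ribosomal protein, at 1.94 and -1.33, and in Vcl, which encodes the adhesion protein vinculin, at 2.53 and -2.77.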

How the results depend on the processing

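With LIF, the 248 genes at least 2-fold higher became 386 with a pseudocount of 0.1 FPKM and 389 when genes at 0 in 1 library were added, and lay between 168 and 284 under the other 7 alternatives. The 355 at least 2-fold lower became 233 with a minimum mean of 5 FPKM and lay between 302 and 513 otherwise. The 99 genes 2-fold in the same direction in both pairs became 165 with a pseudocount of 0.1 FPKM and 64 with a minimum of 5 FPKM. The median of the chromosome 13 stretch, -0.68, was -0.81, -0.85 and -0.83 with that pseudocount, with that minimum and without replication histones, and between -0.64 and -0.63 under the other 4. These were chosen after seeing the data, as were centring on length and GC content and leaving out the stretch. No named gene at least 2-fold different changed sign. Of 1373 values of named genes under an alternative, 78 crossed the 2-fold line or moved by over 1.5 times, 41 of them with the smaller pseudocount. Acly turned to -0.51 with its highest transcript alone. Medians of the gene lists and the stretch were less steady. Under centring on length and GC content 21 of them moved by over 0.1 and 38 did not. With a minimum mean of 5 FPKM 18 moved that far and 40 did not. Counting error at 1 FPKM and 2 kilobases, 11.5%, lies well inside the 2-fold line, but rests on a depth that the preset range may largely set. The spread between cultures is unknown. No library could be left out, since each group has 1. No paired analysis was possible because the labels give no replicate numbers.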
